A study of Drosophila melanogaster with 12 samples.

Results

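The nuclear RNA of U2AF50-depleted cells was set against that of control cells on 6 of the series' 12 Affymetrix arrays, each of which measured 14010 probe sets. The 6 arrays were chosen by their titles, 3 of nuclei after RNA interference (RNAi) against U2AF50 and 3 of nuclei after a non-specific (NS) RNAi, and all 13966 probe sets that are not Affymetrix controls were considered. The cells in all groups were D. mel-2, an embryonic cell line of Drosophila melanogaster, and the other 6 arrays hold cytoplasmic RNA of cells given the same RNAi treatments. The sample descriptions name hypotonic lysis for all 3 U2AF50 nuclear samples and for NS samples 2 and 3, and name no lysis for NS sample 1. No label ties a replicate to a culture of its own, so the spread behind each p-value is that of these preparations and could be technical. The limma p-values come from 1 fit of all 12 arrays, so the cytoplasmic arrays also entered the estimate of that spread.

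U2AF is the factor that recognises the 3' end of introns early in spliceosome assembly. Its large subunit, encoded by U2af50, binds the polypyrimidine tract, its small subunit, encoded by U2af38, contacts the AG at the intron's end, and together they help to bring the U2 small nuclear ribonucleoprotein (snRNP) to the branch point. The fly protein has also been studied for a part in the export of mRNA from the nucleus, and where mRNA lies in the cell is what the series set out to measure. A probe set on these arrays gives a single level per gene region, so spliced and unspliced forms of a transcript were not told apart.

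The U2AF50 nuclear arrays varied more among themselves than the NS nuclear arrays. Across the tested probe sets, pairs of U2AF50 nuclear arrays correlated with r between 0.854 and 0.856, pairs of NS nuclear arrays with r between 0.903 and 0.926, and pairs of 1 array of each group with r between 0.851 and 0.879. The median standard deviation on the log2 scale was 0.423 in U2AF50 nuclei and 0.282 in NS nuclei, and it was larger in U2AF50 nuclei for 5655 of 8379 probe sets. No measure of array quality separated the groups in an exact two-sided permutation test, which cannot go below p = 0.1 with 3 arrays a group. The ratio of 3' to 5' signal of the eIF-4a control averaged 8.95 ± 1.37 in U2AF50 nuclei and 6.86 ± 1.65 in NS nuclei (SD, exact p = 0.2), and that of the GAPDH control 6.19 ± 2.07 and 6.24 ± 1.76 (exact p = 0.9). The part of these differences in the results was not tested beyond the covariate fits given at the end.

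Markers of plasmatocytes, the macrophage-like blood cells of the fly, were present in both groups, with a lower sum after depletion but members on both sides of 0. Of 13 such genes on the array, 11 were tested, and their summed deposited intensity ranged from 66732 to 82648 in U2AF50 nuclei and from 96108 to 103017 in NS nuclei, so the groups did not overlap. Hml, the clotting factor hemolectin, lay between 2047 and 3010 in U2AF50 nuclei and between 4561 and 4789 in NS nuclei, and NimC1, a phagocytic receptor, was at most 87.6 in U2AF50 nuclei and 144 in NS nuclei, near the bottom of the scale. Of the 11 genes only Col4a1 passed the test, 7 had a nuclear change below 0 and 4 above, and the list's median log2 change was -0.18 in the nucleus and 0.60 in the cytoplasm. The receptor gene eater lay between 4773 and 6468 in U2AF50 nuclei and between 4600.5 and 5770.0 in NS nuclei, with overlap. Neuron markers summed to 3995 to 6008 in U2AF50 nuclei and 3824 to 4125 in NS nuclei over 13 genes, with elav at most 518 in U2AF50 nuclei and 132 in NS nuclei, and muscle markers to 1676 to 2274 and 1434 to 2026 over 8 genes. In RNA from bulk cells, fewer cells of a type and less RNA per cell cannot be told apart, and the part of these shifts in the results was not tested.

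The mRNA of the targeted gene was not lower in depleted nuclei. U2af50 had 2718, 1738 and 1678 intensity units on the 3 U2AF50 nuclear arrays, against 1701, 1709.7 and 1589 on the 3 NS nuclear arrays. The groups overlapped, and the log2 change was 0.21 (SE 0.26, limma adjusted p = 0.738), or -0.0167 without U2AF50 nuclear array 1, which held the highest value. In the cytoplasm the same probe set fell by 1.75 on the log2 scale (adjusted p = 0.0012). The nuclear and the cytoplasmic change differed by 1.96 (adjusted p = 0.0375), although this difference missed the threshold in 14 of 25 alternative fits, 9 of which left out a single array, with an adjusted p of up to 0.133 without NS nuclear array 3. Directions below are therefore those of nuclei labelled U2AF50 RNAi, whose knockdown was seen in the cytoplasmic mRNA only. U2af38 had 2609, 1908 and 2151 units in U2AF50 nuclei and 2267, 3039 and 2565 in NS nuclei, and its log2 change of -0.21 did not pass the test (SE 0.20, adjusted p = 0.651).

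A small part of the probe sets passed the test in the nucleus, in both directions. At an unadjusted limma p under 0.05, 568 (6.78%) were higher and 808 (9.64%) lower. The calls are therefore not a count of all RNA that changed. Of the 8379 probe sets above the filter on low values, 132 (1.58%) were higher and 153 (1.83%) were lower in U2AF50 nuclei at an adjusted p under 0.05, 285 in all (3.4%). These counts use the spread of all 12 arrays. With the nuclear arrays alone, 186 passed when normalised among themselves and 178 on values normalised over 12. At least 2-fold changes made up 83 of the rises (0.991% of those tested) and 95 of the falls (1.13%). The share called grew with the level, at 1%, 2.2%, 3.1% and 7.3% in the 4 quartiles of mean level, while the median standard deviation in U2AF50 nuclei was 0.675 in the lowest and 0.244 in the highest. All 3 arrays of 1 group lay above all 3 of the other for 131 of the 132 rises and 152 of the 153 falls, against 8.33% and 11.1% of all probe sets. The exceptions were GstD9 among the rises and MED28 among the falls. The calls were made on these same values, so the lack of overlap is a description and no further support.

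The balance between rises and falls moved with median centring and with single nuclear arrays left out. It was much the same under the other scalings, with rises at 46.3% of the calls on values as deposited and 47.9% with quantiles within each fraction. With the arrays centred on their medians in place of quantile normalisation, 69 probe sets were higher and 240 lower, so that rises made up 22.3% of the calls in place of 46.3%, and the median change of all probe sets was -0.15 in place of -0.05. Leaving out NS nuclear array 1, 2 or 3 cut the calls to 125, 126 and 124, of which 60%, 52.4% and 58.9% were rises. Without U2AF50 nuclear array 3 rises made up 35.1%. Of the 285 calls, 76 passed without any single array, and 56 passed under all 27 alternatives tried, 34 of them higher and 22 lower.

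**Figure D1:**
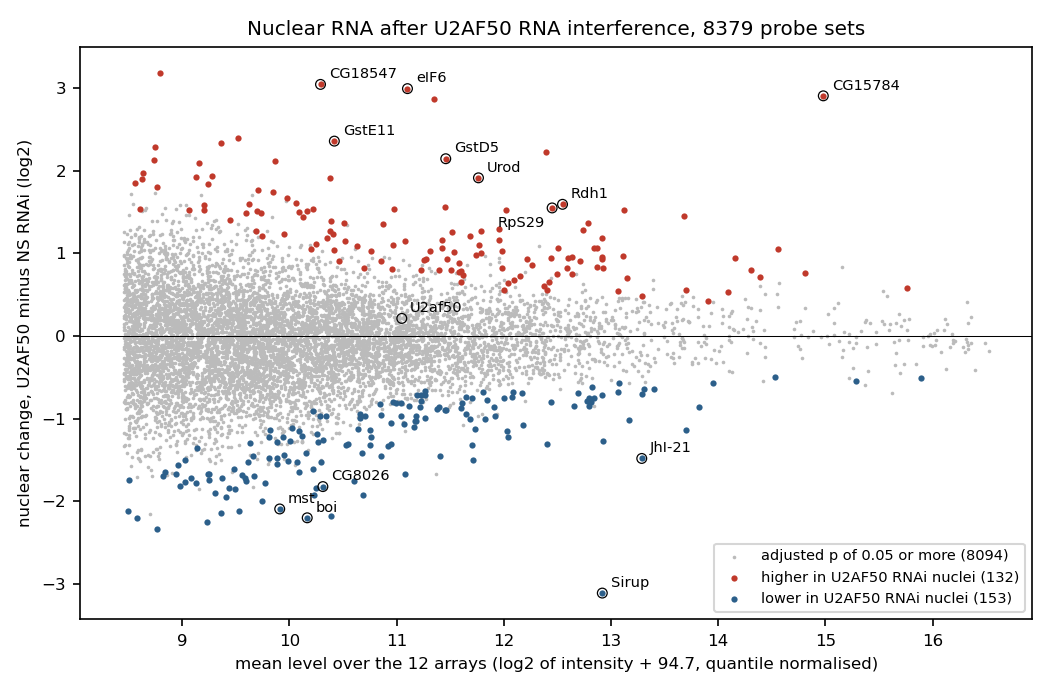
Each point is 1 of 8379 probe sets, with its mean level over the 12 arrays on the x axis and its nuclear change on the y axis, both on the log2 scale. The 132 higher and 153 lower probe sets lie on both sides, Sirup lies lowest at -3.11, CG15784 lies at 2.91 at a high level, and U2af50 sits near 0 at 0.21.

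The rise with the smallest p-value was that of CG15784, a gene known here only by its annotation number. It had 64575, 69023 and 63833 units in U2AF50 nuclei, against 8635, 11343 and 9101 units in NS nuclei, which is a 7.5-fold increase (log2 change 2.91, SE 0.14, adjusted p = 1.51e-09). The groups were far apart and each was narrow. CG18547 had 1846, 1821 and 2493 units in U2AF50 nuclei, against 178, 173 and 156 units in NS nuclei (log2 change 3.05, SE 0.32, adjusted p = 2.95e-05). Its NS values were close to the pseudocount of 94.7, so the fold on this scale understates the ratio of intensities.

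Next came eIF6, a factor needed to make the large ribosomal subunit and to keep it from joining the small one too early. Its main probe set had 2931, 2105 and 2813 units in U2AF50 nuclei, against 297, 332 and 168 units in NS nuclei (log2 change 2.99, SE 0.21, adjusted p = 2.75e-07). A second, dimmer probe set of eIF6 was 2.79-fold higher and did not pass the test (adjusted p = 0.116). The eIF6 mRNA was already plain in the cytoplasm of control cells, at 3522, 3974 and 3679 units there, and 7223, 5381 and 6913 units in U2AF50 cytoplasm.

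Several metabolic and transport genes were among the large rises. Urod, the uroporphyrinogen decarboxylase of heme synthesis, had 5138, 7347 and 7252 units in U2AF50 nuclei, against 1520.2, 1654 and 1912 units in NS nuclei (log2 change 1.91, adjusted p = 0.000234). Apoltp, which makes a lipid transfer particle of the blood, had 5756, 5765 and 3421 units in U2AF50 nuclei, against 1097, 1337 and 1308 units in NS nuclei (log2 change 1.91, adjusted p = 0.000973). The rule that picked both genes asked for groups that do not overlap. U2AF50 array 3 of Apoltp was well below its other U2AF50 arrays. Rdh1, a retinol dehydrogenase, had 51137, 36732 and 48718 units in U2AF50 nuclei, against 17536, 18277 and 17419.5 units in NS nuclei (log2 change 1.59, adjusted p = 3.31e-05).

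RpS29, a protein of the small ribosomal subunit, had 3461, 4305 and 7418 units in U2AF50 nuclei, against 1744, 1342 and 1770.2 units in NS nuclei (log2 change 1.55, adjusted p = 0.000641). Arc2, a relative of the retroviral Gag protein, had 4000.3, 4046 and 4664 units in U2AF50 nuclei, against 1337, 1502 and 1458 units in NS nuclei (log2 change 1.52, adjusted p = 2.37e-05). The germ plasm gene osk had 2584, 2864 and 3582 units in U2AF50 nuclei, against 599, 769.5 and 542 units in NS nuclei (log2 change 2.12, adjusted p = 0.000408). It was the 1 called gene of 5 tested germline and follicle cell genes. The median log2 change of the 5 was -0.41, with 2 above 0 and 3 below. The summed level over 12 such genes, osk itself included, was 6634 to 8218 units in U2AF50 nuclei and 4580 to 5133 units in NS nuclei. The gene vas was at most 189 units in U2AF50 nuclei and 269.6 units in NS nuclei. RhoL, a small GTPase, and Naam, the nicotinamidase of NAD salvage, each rose by 1.54 on the log2 scale, but less securely. RhoL missed the threshold without NS array 1 or 3 (adjusted p = 0.0507 and 0.0644), and Naam without NS array 2 or U2AF50 array 3 (0.0852 and 0.054), and a second Naam probe set did not pass the test (0.237).

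The largest fall was that of Sirup, the succinate dehydrogenase assembly factor of mitochondria. It had 1032, 1293 and 1204 units in U2AF50 nuclei, against 14726, 10353 and 10070.5 units in NS nuclei, which is 8.65-fold lower (log2 change -3.11, SE 0.16, adjusted p = 1.86e-09). CG12279 had 121, 216 and 492 units in U2AF50 nuclei, against 1518, 1082 and 1114 units in NS nuclei (log2 change -2.18, adjusted p = 0.00208). The gene misato, mst, needed for mitotic spindles, had 239.8, 229 and 284 units in U2AF50 nuclei, against 1218, 1144 and 1095 units in NS nuclei (log2 change -2.09, adjusted p = 0.000565). The rule that picked these 3 genes asked for groups that do not overlap, so their separation is no further support.

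CG8026 had 541, 415 and 518 units in U2AF50 nuclei, against 1638, 1632 and 1764 units in NS nuclei (log2 change -1.82, adjusted p = 0.000259). The Hedgehog co-receptor gene boi had 1639.5, 2701 and 1372 units in U2AF50 nuclei, against 9194, 8504 and 11117 units in NS nuclei (log2 change -2.20, SE 0.46, adjusted p = 0.0128). That call ended without NS array 1, 2 or 3 (adjusted p = 0.0544, 0.0519 and 0.0696), and a second boi probe set, at -0.75, did not pass the test (adjusted p = 0.423). The first boi probe set read 422, 58.7 and 73.4 units in U2AF50 cytoplasm and 142, 208 and 563 units in NS cytoplasm. The second read 1461.5, 1256.7 and 1111.8 units in NS nuclei and 212.8, 352.3 and 545.2 units in NS cytoplasm. Each array is scaled to the same mean, so these units do not give the split of the RNA between the fractions.

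Among the remaining falls, sktl, a kinase that makes phosphatidylinositol 4,5-bisphosphate, changed by -1.84 on the log2 scale (adjusted p = 0.00774) and kept its call without any single array. So did ND-ASHI, an accessory subunit of respiratory complex I, at -1.76 (adjusted p = 0.00286). With the nuclear arrays alone on values normalised over 12, both missed the threshold (adjusted p = 0.0738 and 0.0539). JhI-21, an amino acid transporter, had 8514, 12329 and 15325 units in U2AF50 nuclei, against 42464, 21382 and 38264 units in NS nuclei (log2 change -1.48, adjusted p = 0.0177), and lost its call without NS array 1 or 3 or U2AF50 array 1 (adjusted p = 0.107, 0.0866 and 0.0692). The copper chaperone Atox1 (-1.67), the phosphatidylinositol transfer protein vib (-1.64) and RhoGAP5A (-1.51) ended without NS array 1, at adjusted p = 0.117, 0.0696 and 0.0979, and without NS array 3, at 0.09, 0.0646 and 0.0513. Atox1 and RhoGAP5A also ended without NS array 2 (0.078 and 0.101), and RhoGAP5A without U2AF50 array 2 (0.0586). Uqcc1, an assembly factor of complex III, had a change of -1.53 that passed in 7 of 27 alternatives and lost its call without any 1 of 11 of the 12 arrays.

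**Figure D2:**
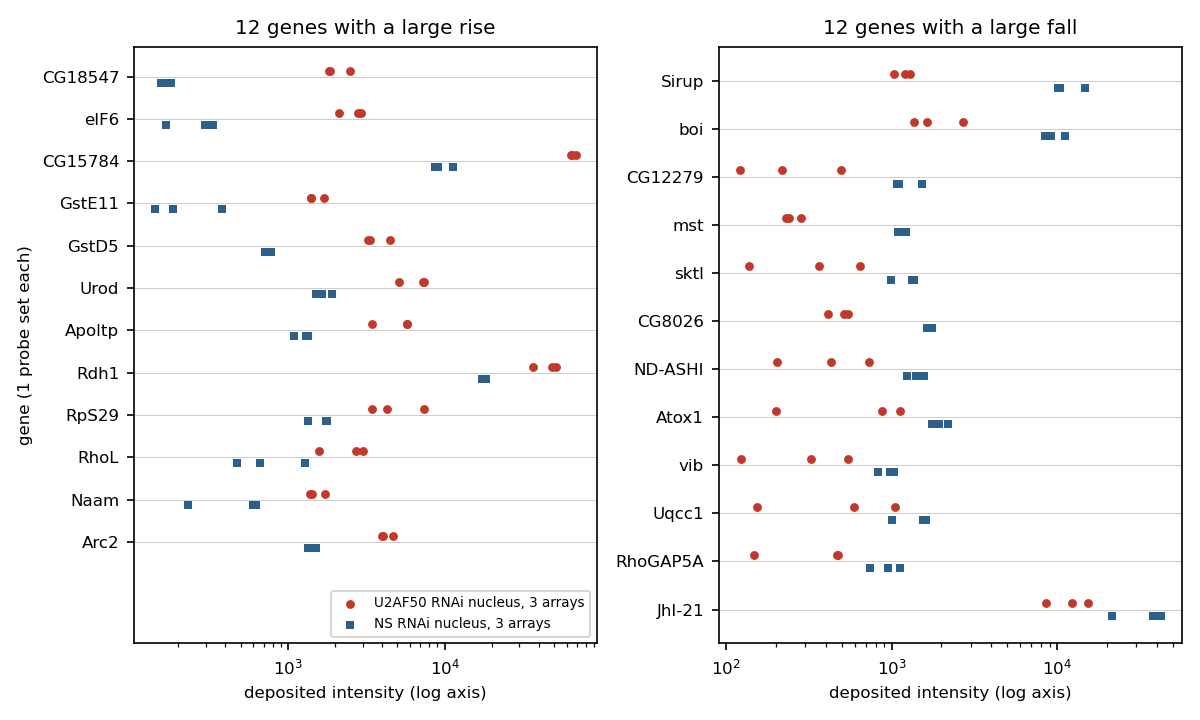
Deposited intensity on a log axis for 12 genes with a large rise (left) and 12 with a large fall (right), with 3 U2AF50 nuclear arrays as circles and 3 NS nuclear arrays as squares. The genes were picked by a rule that asks for normalised values without overlap. Most form 2 separate clusters, as CG15784 and Sirup do, while Atox1 and RhoGAP5A have 1 U2AF50 array far below the other 2. The deposited values of Uqcc1 overlap, though its normalised values do not.

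Of the gene lists, that of the detoxifying glutathione transferases held the most rises. These enzymes join glutathione to reactive compounds, and 6 of 28 tested genes rose while 0 fell. With 1 probe set per gene, 1.75% of all 6868 tested genes rose and 1.82% fell, 3.57% in all. Their median log2 change was 0.28, against -0.05 over all genes. GstE11 had 1705, 1410.2 and 1408 units in U2AF50 nuclei, against 383, 185 and 142 units in NS nuclei (log2 change 2.36, SE 0.31, adjusted p = 0.00036). GstD5 had 3224, 3336 and 4478 units in U2AF50 nuclei, against 719.6, 782 and 784 units in NS nuclei (log2 change 2.15, SE 0.19, adjusted p = 3.24e-06).

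GstD3 had 4598, 5094 and 6757 units in U2AF50 nuclei, against 2012, 2070.4 and 2262 units in NS nuclei (log2 change 1.37, adjusted p = 5.22e-05). GstE6 had 12938, 14078 and 15393 units in U2AF50 nuclei, against 8122, 7508 and 7358 units in NS nuclei (log2 change 0.94, adjusted p = 0.00045). In these 4 genes the groups did not overlap, and each call passed under all 27 alternatives. GstD9, with 4011, 1634 and 3428 units in U2AF50 nuclei and 1102, 722 and 1747 units in NS nuclei, overlapped between the groups (log2 change 1.28, adjusted p = 0.0305). Its call ended without NS array 1 or 2 or U2AF50 array 1 or 3 (adjusted p = 0.0988, 0.145, 0.11 and 0.0827). GstD1 changed by 0.56 (adjusted p = 0.0347) and passed in 13 of 27 alternatives. It ended without NS array 1 or 3, U2AF50 nuclear array 1 or 3, or U2AF50 cytoplasmic array 1 or 2, with adjusted p = 0.161, 0.148, 0.059, 0.0877, 0.0542 and 0.0502. Across the alternatives between 4 and 7 of the 28 genes rose.

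These 6 glutathione transferases also rose in the cytoplasm. That comparison is between other arrays, but both share the normalisation and the estimate of the spread, so they are not independent tests. GstD5 changed there by 2.18 and GstD3 by 1.49 on the log2 scale (adjusted p = 4.32e-06 and 2.59e-05), and the difference between fractions passed the test for 0 of the 28. At the other end of the family, GstE13 changed by -1.15 and GstE12 by -0.83 in the nucleus without passing the test. The probe sequences were not used here, so signal shared between related transferases was not tested.

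**Figure D3:**
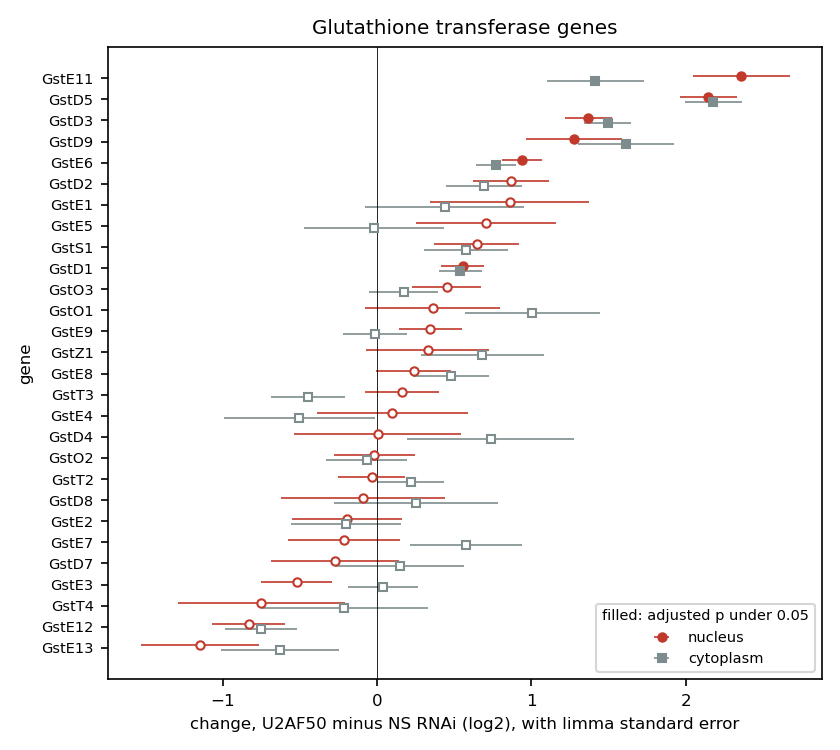
Log2 change of 28 glutathione transferase genes in the nucleus (circles) and the cytoplasm (squares), U2AF50 minus NS RNAi, with limma standard errors; filled symbols have an adjusted p under 0.05. GstE11, GstD5, GstD3, GstD9, GstE6 and GstD1 are filled in both fractions and lie to the right of 0.

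Of 19 tested genes of the oxidative stress and xenobiotic response, 2 rose and 0 fell, with a median of 0.34. They were GstD1 and Gclc, the catalytic subunit of the enzyme that limits glutathione synthesis. Gclc had 3058, 3509 and 2479 units in U2AF50 nuclei, against 1144, 984 and 819.5 units in NS nuclei, a change of 1.52 on the log2 scale (adjusted p = 0.0128). That call ended without NS array 2 or 3 (adjusted p = 0.0503 and 0.0669), and without NS array 3 the list had 0 rises.

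In the immune lists 3 antimicrobial peptide genes rose and 2 signalling genes fell. Antimicrobial peptides are secreted against bacteria and fungi, and 3 of 7 tested rose and 0 fell, with a median log2 change of 0.79, or 0.47 without U2AF50 nuclear array 1. Mtk, metchnikowin, had 3461, 4831 and 4328 units in U2AF50 nuclei, against 1482, 2097 and 1514 units in NS nuclei (log2 change 1.29, adjusted p = 0.000565). AttD, an attacin, had 6449, 7674 and 6478 units in U2AF50 nuclei, against 3457, 3188 and 2995 units in NS nuclei (log2 change 1.18, adjusted p = 0.000525). DptB, a diptericin, had 130593, 98969 and 83594 units in U2AF50 nuclei, against 48094, 53194 and 43801 units in NS nuclei (log2 change 0.79, adjusted p = 0.0022), and kept its call without any single array, though not without the intensity trend (adjusted p = 0.0564). In all 3 genes the lowest U2AF50 array lay above the highest NS array. Of the other members, BomS5 changed by 0.80 (adjusted p = 0.488), Drsl6 by -1.42 without overlap (0.226), CecB by -0.55 (0.538) and Drs by -0.27 (0.436), none past the test.

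Of 23 tested genes of Toll, Imd and JAK/STAT signalling, 0 rose and 2 fell, with a median of -0.01. Dredd, the caspase of the Imd pathway, had 1063, 1364 and 1153 units in U2AF50 nuclei, against 3560.0, 3116 and 2651 units in NS nuclei (log2 change -1.32, adjusted p = 0.00559). The Toll ligand gene spz changed by -0.65 (adjusted p = 0.0347), and lost its call without any 1 of the 6 nuclear arrays, with an adjusted p of 0.0503 to 0.131 there.

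Genes of the secreted matrix and blood proteins moved in both directions, with 3 of 24 higher, 1 lower and a median of -0.06. Tep4, a thioester-containing protein, had 41894, 36588 and 40678 units in U2AF50 nuclei, against 15647, 16962 and 14737 units in NS nuclei (log2 change 1.46, adjusted p = 9.02e-06). Nplp2, a secreted peptide precursor, had 70137, 65911 and 71897 units in U2AF50 nuclei, against 31335, 39991 and 30491 units in NS nuclei (log2 change 1.06, adjusted p = 0.000851). Both genes were higher in every U2AF50 nucleus. Idgf4, a chitinase-like growth factor, rose by 1.90 on the log2 scale (adjusted p = 0.0348), and lost its call without NS array 1, 2 or 3 (adjusted p = 0.146, 0.0806 and 0.0716), U2AF50 nuclear array 2 or 3 (0.0728 and 0.0886) or U2AF50 cytoplasmic array 3 (0.052).

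Col4a1, a chain of basement membrane collagen and 1 of the plasmatocyte markers, had 5772, 8007 and 5175 units in U2AF50 nuclei, against 13989, 14873 and 11957 units in NS nuclei (log2 change -0.90, adjusted p = 0.0164). The call ended without NS array 1 or 2 or U2AF50 array 3 (adjusted p = 0.0756, 0.086 and 0.0522). Its values are part of the plasmatocyte sum given above, so the lower sum is not a separate observation. The filamin gene cher, on the crystal cell and lamellocyte list, changed by -0.80 (adjusted p = 0.012, and 0.0696 without NS array 3), and the 11 genes of that list summed to 27638 to 37952 units in U2AF50 nuclei and 34703 to 41214 units in NS nuclei.

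The DNA damage and replication lists also split. Of 22 p53 and apoptosis genes, 3 rose and 2 fell, with a median of -0.07. TP53INP, the fly relative of a p53-induced protein that acts in autophagy, had 1704, 1946 and 2001 units in U2AF50 nuclei, against 192, 499 and 233 units in NS nuclei (log2 change 2.40, SE 0.34, adjusted p = 0.000586). Irbp, the Ku70 protein that binds broken DNA ends, had 1432, 1283 and 1448 units in U2AF50 nuclei, against 741, 520.3 and 246 units in NS nuclei (log2 change 1.39, adjusted p = 0.0164, and 0.0704 without NS array 3). The falls were Dredd and the checkpoint kinase lok. The lok change was -1.54 (adjusted p = 0.036), and its call ended without any of 9 single arrays, with an adjusted p of up to 0.171 without NS nuclear array 1.

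Of 36 DNA replication genes, 2 rose and 1 fell, with a median of -0.22. RPA1, which coats single-stranded DNA, had 8797, 6193 and 7272 units in U2AF50 nuclei, against 3560.0, 3665 and 3846 units in NS nuclei (log2 change 1.07, adjusted p = 0.000565), while a second, dimmer RPA1 probe set changed by 0.05 (adjusted p = 0.967). RnrL, the large subunit of ribonucleotide reductase and also on the p53 list, had 5877, 4779 and 6076 units in U2AF50 nuclei, against 3276, 2605 and 3464 units in NS nuclei (log2 change 0.94, adjusted p = 0.00451, and 0.131 with arrays centred on their medians). Mcm10, a replication initiation factor, changed by -1.74 (adjusted p = 0.0188), and its call ended without NS array 1 or 2 (adjusted p = 0.0724 and 0.0713). None of 42 cell cycle and mitosis genes passed the limma test, and at an unadjusted p under 0.05 there were 0 higher and 6 lower, beside 6.78% and 9.64% of all 8379 probe sets at that level.

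**Figure D4:**
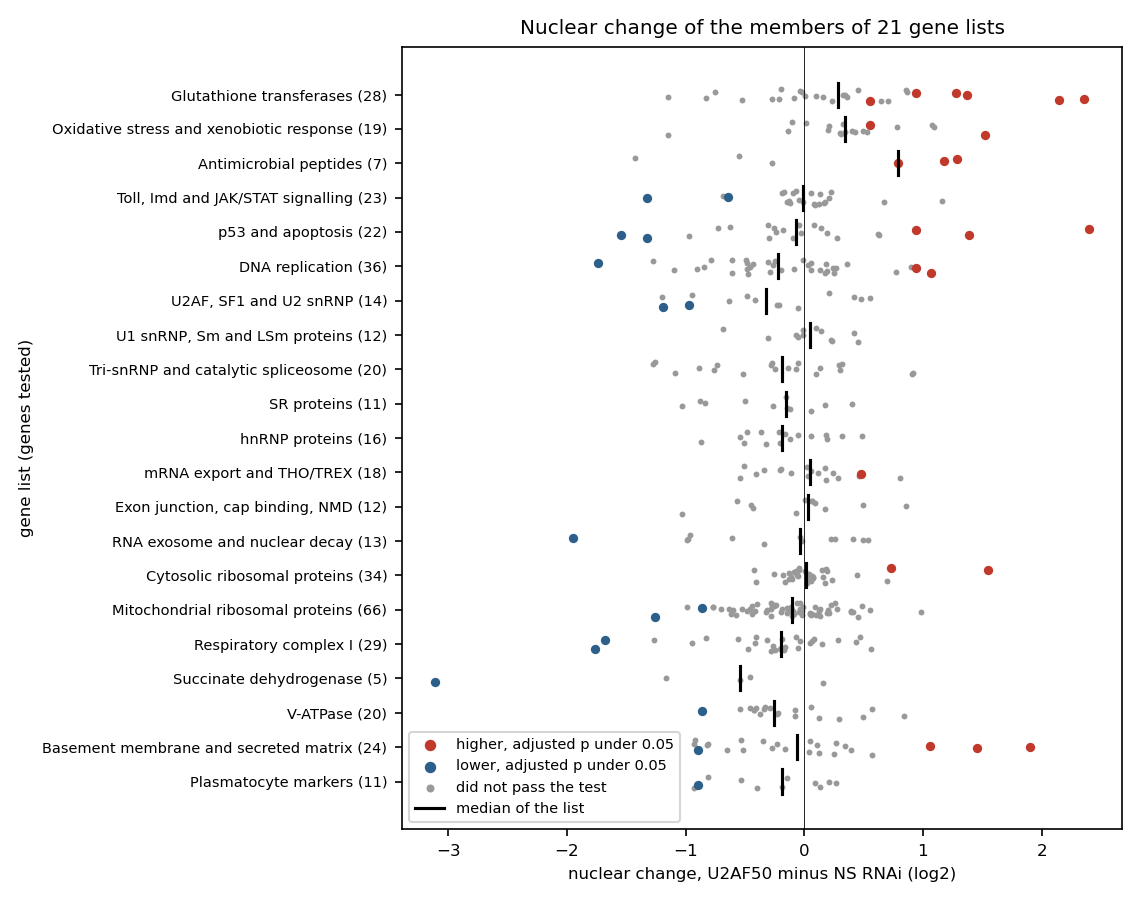
Nuclear log2 change of every tested member of 21 gene lists, with the number tested in brackets; red points are higher and blue points lower at an adjusted p under 0.05, grey points did not pass, and the bar marks each list's median. Glutathione transferases hold 6 red points, antimicrobial peptides 3, and Sirup is the lowest point of the plot at -3.11.

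Genes of the splicing machinery mostly did not pass the test. In the list of U2AF, SF1 and U2 snRNP genes 0 of 14 rose and 2 fell, with a median of -0.32, against -0.05 over all genes. At an unadjusted p under 0.05, 1 of the 14 was higher and 6 were lower, beside 459 and 665 of all 6868 tested genes. The same background holds for the unadjusted counts of the lists below. The 2 falls past the adjusted threshold were Phf5a and Sf3b5, small proteins of the SF3b complex that holds the branch point. Phf5a had 622, 326 and 298 units in U2AF50 nuclei, against 967, 800.4 and 848 units in NS nuclei (log2 change -1.19, adjusted p = 0.0213). Sf3b5 had 361, 449 and 455 units in U2AF50 nuclei, against 856, 768 and 683 units in NS nuclei (log2 change -0.97, adjusted p = 0.0316). The groups did not overlap in either gene, but both calls were fragile. Phf5a lost its call without NS array 1 or 3 or U2AF50 array 2 (adjusted p = 0.0988, 0.0696 and 0.0509), and Sf3b5 without any 1 of 7 arrays, with an adjusted p of up to 0.138 without NS nuclear array 1.

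None of 12 genes of the U1 snRNP, Sm and LSm proteins passed the limma test, nor any of 20 tri-snRNP genes, 11 SR protein genes or 16 hnRNP genes. At an unadjusted p under 0.05 these lists had 1, 0, 1 and 1 genes higher and 0, 4, 4 and 1 lower. Their medians were 0.04, -0.19, -0.15 and -0.18 on the log2 scale, and that of the U1 list turned to -0.09 with the arrays centred on their medians. The SR-type regulator tra had 769.4, 516 and 683 units in U2AF50 nuclei, against 1316, 1091 and 1328 units in NS nuclei, without overlap, and its change of -1.03 did not pass the test (adjusted p = 0.102).

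Downstream of splicing, 1 of 18 genes of mRNA export and THO/TREX rose. It was emb, the exportin of the nuclear pore, with 8900.0, 8532 and 9449 units in U2AF50 nuclei, against 6704, 6948 and 6986 units in NS nuclei (log2 change 0.48, adjusted p = 0.0414). A second, dimmer emb probe set changed by -0.10 (adjusted p = 0.88). The call passed in 8 of 27 alternatives and ended without any 1 of 10 arrays, with an adjusted p of up to 0.161. Of 12 genes of the exon junction complex, cap binding and nonsense-mediated decay, 25 nuclear pore genes and 21 cleavage and polyadenylation genes, 0 passed the limma test. At an unadjusted p under 0.05 they had 0, 0 and 1 genes higher and 1, 4 and 2 lower.

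Rrp46, a core subunit of the RNA exosome, had 301, 250.3 and 56.2 units in U2AF50 nuclei, against 736, 766 and 901 units in NS nuclei (log2 change -1.94, adjusted p = 0.00922). It was the 1 call among 13 exosome and nuclear decay genes and passed without any single array, but not with the nuclear arrays alone (0.0673 and 0.0757). The transcription factors Ssrp, of the FACT histone chaperone, and atms, of the Paf1 complex, changed by 0.82 and -1.73 (adjusted p = 0.0108 and 0.019), as 2 of 19 genes on the RNA polymerase II list. Ssrp lost its call without NS array 2 (adjusted p = 0.0516) and atms without NS array 3 (0.104). In the RNA interference and microRNA list, 1 of 16 genes passed, armi, a helicase of small RNA pathways, at -1.22 (adjusted p = 0.0393). Its call ended without any 1 of 8 arrays, with an adjusted p of up to 0.154 without NS nuclear array 3. Cells of both groups had received an RNAi treatment.

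The 3 translation lists held 2, 2 and 3 calls among 34, 35 and 26 tested genes, beside 3.57% of all tested genes. Besides RpS29, RpL24-like rose among 34 cytosolic ribosomal protein genes, by 0.73 on the log2 scale (adjusted p = 0.0116, and 0.0523 and 0.0588 without NS array 2 or 3), and the list's median was 0.01. Among 35 translation factors eIF6 and eIF3m rose, the second by 0.43 (adjusted p = 0.0456) with a call that passed in 8 of 27 alternatives and ended without any 1 of 10 arrays, at up to 0.149. Of 26 aminoacyl-tRNA synthetases, GlyRS and SerRS rose and AsnRS fell. GlyRS had 7314, 7265 and 9832 units in U2AF50 nuclei, against 5272, 3393 and 5035 units in NS nuclei (log2 change 0.95, adjusted p = 0.00359, and 0.105 with arrays centred on their medians). SerRS changed by 0.65 (adjusted p = 0.0177) and lost its call without NS array 1 or 3 (0.0988 and 0.0619). AsnRS changed by -0.85 (adjusted p = 0.0188) and lost its call without NS array 1, 2 or 3 or U2AF50 array 1 or 3, at 0.0503 to 0.0824.

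Calls in the mitochondrial lists chosen here were all falls, beside 1.75% of all tested genes that rose and 1.82% that fell. These lists do not hold every gene of a mitochondrial protein. Nfs1 and IscU, of iron-sulphur cluster assembly, were not on them and rose, as given in the closing section. Of 29 complex I genes, 2 fell and 0 rose, with a median of -0.19, and these were ND-ASHI and ND-18. ND-ASHI had 202, 728 and 431 units in U2AF50 nuclei, against 1399, 1242 and 1563 units in NS nuclei. ND-18 changed by -1.68 (adjusted p = 0.0251), and lost its call without NS array 1, 2 or 3 or U2AF50 array 2, at 0.0523 to 0.0956. Sirup was the 1 call among 5 succinate dehydrogenase genes (median -0.54), and ATPsynC, a membrane subunit of ATP synthase, the 1 call among 14 ATP synthase genes, at -0.69 (adjusted p = 0.0284). The ATPsynC call ended without NS array 1, 2 or 3 or U2AF50 array 1 or 2, at 0.0501 to 0.145, and a second ATPsynC probe set changed by 0.01.

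Of 66 mitochondrial ribosomal protein genes, mRpS24 and mRpL23 fell, by 1.25 and 0.86 on the log2 scale (adjusted p = 0.0294 and 0.0278), and 0 rose. Without NS array 1 both calls ended (adjusted p = 0.13 and 0.115), and mRpS24 also ended without NS array 3 (0.131), U2AF50 nuclear array 1 or 2 (0.0666 and 0.0708) or any U2AF50 cytoplasmic array (0.0524 to 0.0542). The mRpL23 call also ended without NS array 2 (0.111) or U2AF50 array 3 (0.0622). In complexes III and IV 0 of 16 genes passed the limma test, with 0 higher and 4 lower at an unadjusted p under 0.05.

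Single genes fell in the translocon, lysosome and V-ATPase lists, beside 1.82% of all tested genes. Sec61alpha, the channel through which proteins enter the endoplasmic reticulum, had 33546, 31548 and 31638 units in U2AF50 nuclei, against 53939, 64140.4 and 62452 units in NS nuclei (log2 change -1.14, adjusted p = 0.00106). It was the 1 call among 22 translocon and glycosylation genes. Swim, a secreted cathepsin-like protein, had 13102, 10003 and 13418 units in U2AF50 nuclei, against 26968, 31391 and 27982 units in NS nuclei (log2 change -1.16, adjusted p = 0.000462). VhaM9.7-b, a membrane subunit of the proton pump V-ATPase, had 11181, 9759.9 and 10402 units in U2AF50 nuclei, against 20882, 22742 and 23620.1 units in NS nuclei (log2 change -0.86, adjusted p = 0.000989). None of the 3 genes had overlapping groups. On the NS cytoplasmic arrays Sec61alpha read 4379.5, 3243.9 and 4016 units and Swim read 843.2, 954.7 and 798 units. VhaM9.7-b read 15751.3, 14419.1 and 15716.1 units there. The purity of the nuclear fractions was not tested.

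Npc2a, a cholesterol-binding protein on the same lysosome list as Swim, rose by 1.06 (adjusted p = 0.0108, and 0.0571 without NS array 2), so that 1 of 13 genes rose and 1 fell. VhaM9.7-b was the 1 call among 20 V-ATPase genes, whose median was -0.26. Of 20 endoplasmic reticulum chaperone genes, 16 coat and p24 genes and 28 proteasome genes, 0 passed the limma test, and at an unadjusted p under 0.05 there were 0, 1 and 4 higher and 1, 3 and 3 lower. The histone variant gene His2Av had 4389, 4678 and 5762 units in U2AF50 nuclei, against 9094, 8695 and 9025 units in NS nuclei (log2 change -0.70, adjusted p = 0.00416, and 0.0676 without the intensity trend). It was the only tested histone gene.

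The glycolytic enzyme Pgi rose by 0.61 (adjusted p = 0.0245) as 1 of 8 glycolysis genes, and lost its call without NS array 2 or 3 or U2AF50 array 1 (adjusted p = 0.0826, 0.0973 and 0.0574). MED28 was the 1 call among 24 Mediator genes, at -1.47 (adjusted p = 0.0478), with groups that met at 297 units and a call that passed in 6 of 27 alternatives. It ended without any 1 of 10 arrays, with an adjusted p of up to 0.215 without NS nuclear array 1. Of 9 intronless heat shock and stress genes, which need no splicing, 0 passed the limma test, with 2 higher and 0 lower at an unadjusted p under 0.05. Their median of -0.14 turned to 0.24 without U2AF50 nuclear array 3 and to 0.45 with the filter at the 60th percentile. Of 13 long noncoding RNAs, 1 fell, lncRNA:CR42862. Its probe set had 12449, 9716 and 10620.0 units in U2AF50 nuclei, against 33456, 29497 and 33354 units in NS nuclei (log2 change -1.50, adjusted p = 0.000136), and a second probe set fell by 1.93 (adjusted p = 0.0128).

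Set beside the cytoplasm, which was measured on other arrays but normalised and fitted together with the nuclear ones, rises were shared more than falls in number. Of the 132 nuclear rises 47 (35.6%) were also called higher in the cytoplasm, which is 31.8% of the 148 cytoplasmic rises (1.77% of probe sets). Of the 153 nuclear falls 12 (7.84%) were also called lower there, which is 17.9% of the 67 cytoplasmic falls (0.8% of probe sets), and 0 probe sets were called in opposite directions. The called rises had a median log2 change of 1.15 in the nucleus and 0.59 in the cytoplasm, and the called falls -1.21 and -0.27. The calls were made on the nuclear values, so these medians are a description, and the difference in sharing was not tested.

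Examples of rises in both fractions were Rdh1, at 1.59 in the nucleus and 1.67 in the cytoplasm, RpS29, at 1.55 and 1.51, and RPA1, at 1.07 and 1.42. Orct2, an organic cation transporter, fell by 1.31 in the nucleus and by 1.21 in the cytoplasm on the log2 scale. Sirup fell by 3.11 in the nucleus and by 2.05 in the cytoplasm, and this difference between fractions missed the threshold (adjusted p = 0.0571).

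The nuclear change on the log2 scale lay above the cytoplasmic one, by the test of the difference, in 6 probe sets (0.0716%) and below it in 8 (0.0955%), sign included, so that a fall in the nucleus alone counts as below, and 9 of these 14 were called in the nucleus. The eIF6 rise was the difference that passed in 25 of 25 alternatives, with 2.99 in the nucleus and 0.71 in the cytoplasm (difference 2.29, adjusted p = 0.00311). The second, dimmer eIF6 probe set changed by 1.48 and -0.45, and its difference of 1.93 did not pass the test (adjusted p = 0.263). CG15784 rose by 2.91 and 1.44 (difference 1.46, adjusted p = 0.00311), passing in 24 of 25. Swim changed by -1.16 in the nucleus and 0.08 in the cytoplasm, where it read 874, 862 and 857 units in U2AF50 cells and 843, 955 and 798 units in NS cells. For lncRNA:CR42862 the changes were -1.50 and -0.05, and its cytoplasmic signal was low, at 395, 429 and 485 units in U2AF50 cells and 523, 439.7 and 672 units in NS cells. The differences of these last 2 passed in 13 and 14 of 25 alternatives, and both missed the threshold without any 1 of the 3 NS nuclear arrays.

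**Figure D5:**
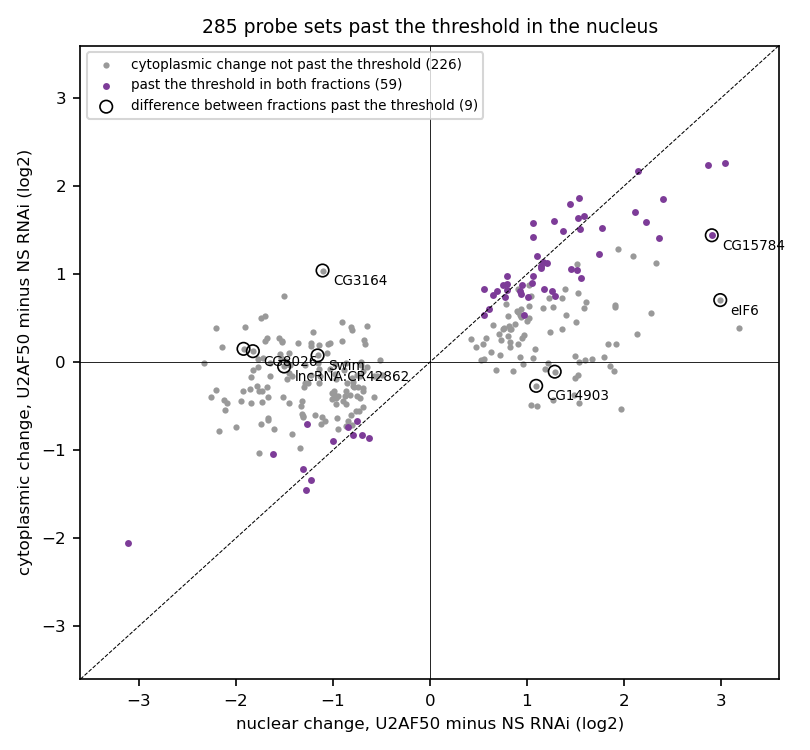
Log2 change in the nucleus (x axis) and in the cytoplasm (y axis) of the 285 probe sets past the threshold in the nucleus, with the line of equal change dashed; 59 were also past it in the cytoplasm and 9 circled ones differed between fractions. In the cytoplasm 115 of the 132 rises lie above 0 and 115 of the 153 falls lie below it, with medians of 0.59 and -0.27.

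Some of the called genes lie close together in the gene order. Counting genes at most 3 places apart on a chromosome in the RefSeq gene table, 9920 pairs had both genes tested, 16 pairs had both called, and 13 of these moved the same way. Of all 6868 tested genes 3.57% were called, so some pairs would both be called without any tie to position, and 16 is not shown to be more. GstD9, GstD1, GstD3 and GstD5 rose in 1 cluster, in steps of 1, 3 and 2 places, so not as an unbroken run. GstE11 and its neighbour CG43066 rose together, at 2.36 and 1.84, and Ugt302K1 and Ugt302C1, UDP-glycosyltransferases that also act in detoxification, rose by 3.18 and 1.21. Ugt302K1 had 2062, 2505 and 3025 units in U2AF50 nuclei, against 327, 80.9 and 267 units in NS nuclei. Among the falls, Irp-1B and Rrp46 changed by -1.69 and -1.94. Orct2 and its neighbour Orct both fell, and Orct had 5709, 4370.4 and 5251 units in U2AF50 nuclei, against 11569, 12345 and 11289.7 units in NS nuclei (adjusted p = 0.00261). The calls of CG43066, Ugt302C1 and Irp-1B each ended without several single arrays, among them NS nuclear array 1 (adjusted p = 0.145, 0.0869 and 0.114). These neighbours were looked up after their values were seen, and no test was made of the count.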

How the data were processed

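RNA of nuclear and cytoplasmic fractions was measured on 12 Affymetrix 1-colour arrays, 4 groups of 3. The deposited intensity values are linear, and each array's mean is 1000 after the lowest and highest 2% are set aside, as read from the values. How the authors made them (image software, summarisation) is not given in the sources used here. The number of arrays limits the precision.

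Intensities were turned into log2(value + 94.7), 94.7 being the 20th percentile of all values, and quantile normalised over 12 arrays. The 44 control probe sets were left out (13966 stayed), and the 8379 with a mean above the 40th percentile were tested. One fit with limma 3.58.1 in R 4.3.3 (lmFit, eBayes with intensity trend, 8 residual degrees of freedom) gave the contrasts, with Benjamini-Hochberg adjustment over all 8379 and a threshold of 0.05. Errors are limma standard errors. A fold change on this scale understates that of dim genes. The 27 alternatives covered normalization, pseudocount, filter, arrays in the fit, spread model, covariates and each array left out. The fit was tested on simulated data drawn with the same spread in every group, so the larger spread of U2AF50 nuclei was not covered.

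Of 14010 probe sets, 12444 had 1 gene symbol, 327 several and 1239 none, and 12394 were matched to the RefSeq table of Release 6, which was used for names and gene order only. Lists used the brightest probe set per gene, 6868 genes. Of 31 genes with several probe sets and a call, 28 had a probe set that did not pass. The named genes were U2af50, U2af38, and, in each direction, the 10 named and 2 annotation-number genes changed most above the median level of 9.88 (log2), called and without overlap, and up to 3 per list. Members and lists were chosen with earlier results of these data known, and 4 genes (Galphai, FucTA, CycG and bai) were taken off lists they did not belong to after values were seen. GstD9, GstE6, GstE12, GstE13, Hml and genes named by position or in the closing section were also chosen after values were seen. Sequences were not used here.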

Additional observations from a re-analysis of the deposited data

Results flagged for a closer look

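In 14 probe sets the change with depletion differed between the nucleus and the cytoplasm by the test of the difference itself (limma interaction, adjusted p under 0.05). Positive differences (nuclear minus cytoplasmic log2 change) were 2.34 for RpL28, 2.29 for eIF6, 1.96 for U2af50, 1.46 for CG15784, 1.39 for a probe set with no gene name and 1.36 for CG14903. RpL28, a large-subunit ribosomal protein, had 30856, 24779.6 and 24626 units in U2AF50 nuclei and 22545, 26133 and 26266 units in NS nuclei, and it fell by 2.16 in the cytoplasm. Negative differences were -2.75 for a second unnamed probe set, -2.15 for CG3164, -2.07 for another unnamed one, -1.95 for CG8026, -1.70 for miple2, -1.70 for Sil1, -1.45 for lncRNA:CR42862 and -1.23 for Swim. CG3164 had 3286, 3938 and 4773 units in U2AF50 nuclei, against 11477, 8189 and 9427 in NS nuclei, and 963, 1219 and 1169 units in U2AF50 cytoplasm, against 281, 593 and 785 in NS cytoplasm. Sil1, a nucleotide exchange factor of the endoplasmic reticulum, changed by -0.40 in the nucleus (adjusted p = 0.349) and 1.30 in the cytoplasm (adjusted p = 0.0019). Only the difference of the brighter eIF6 probe set passed in all 25 alternatives in which it could be fitted. RpL28 and CG15784 each missed the threshold once, without the intensity trend (adjusted p = 0.108 and 0.115). The others each ended without NS nuclear array 1, at an adjusted p of 0.0516 to 0.196, and all of these but the probe set at -2.07 without NS nuclear array 3, at 0.0775 to 0.144.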

How the results depend on the processing

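The count of 285 nuclear calls was 186 and 178 with the nuclear arrays alone (normalised among themselves or over 12), 155 without the intensity trend, 168 with array weights and 143 with 1 weight per group, an alternative chosen after seeing the data that gave U2AF50 nuclear arrays a weight of 0.538, NS nuclear arrays 1.12, U2AF50 cytoplasmic arrays 2.21 and NS cytoplasmic arrays 0.752. It was 124 to 354 with each array left out, and each alternative not named here for it gave within 1.5 times 285. Higher calls, 132, were 69 with arrays centred on medians, 87 with the nuclear arrays alone on values normalised over 12, 74 without the trend, 77 with array weights, 69 with 1 weight per group, and 66 to 166 with an array left out. Lower calls, 153, were 240 centred, 101 without the filter on low values, 97 and 91 with the nuclear arrays alone, 81 without the trend, 91 with array weights, 74 with 1 weight per group, and 50 to 209 with an array left out. The 14 differences between fractions were 35 on values as deposited, 183 centred, 27 with quantiles within each fraction, 25 with the 40th percentile as pseudocount, 7 without the filter, 25 with the filter at the 60th percentile, 5 without the trend, 28 with array weights, 5 with the GAPDH ratio and 3 with hybridisation controls in the fit, and 3 to 83 with an array left out. The cause of these shifts was not tested. The U2af50 change, 0.21, stayed short of the threshold in all 27 alternatives and ranged from -0.0167 without U2AF50 nuclear array 1, a reversed sign, to 0.35 without U2AF50 nuclear array 3. Same-numbered nuclear arrays of the 2 treatments did not deviate together (r = -0.0351, 0.039 and 0.0377), so the numbers were not taken as pairs, and the fit with replicate number as a block gave 267 nuclear calls, 250 of them shared with the 285, and 20 differences. The medians of the p53, Toll, secreted matrix, cytosolic ribosomal protein, U1 and intronless lists, all near 0, took both signs over the alternatives. Dim probe sets, whose spread was larger, limit what could be called.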

Other observations

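Small groups of genes that came to notice after their values were seen are given here as values, with no test of the group. In heme synthesis Urod and FeCH rose among 6 tested genes, and in iron-sulphur cluster assembly Nfs1 and IscU rose among 13, whose median log2 change was 0.59. Nfs1, the cysteine desulphurase, had 7128, 8229 and 5646 units in U2AF50 nuclei, against 4384, 4259 and 3158 in NS nuclei (log2 change 0.93, limma adjusted p = 0.00397), and it passed without any single array, but not without the intensity trend (0.0553). IscU, the scaffold protein, had 3676, 3961 and 6182 units in U2AF50 nuclei, against 2874, 2863 and 2637 in NS nuclei (log2 change 0.75, adjusted p = 0.0188, and 0.0667, 0.0519 and 0.0818 without NS array 1, 2 or 3). FeCH, ferrochelatase, changed by 0.64 and passed in 12 of 27 alternatives, with an adjusted p of up to 0.142 without NS nuclear array 3.

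In a list of the CD98 heavy chain and amino acid transporters, 3 of 7 tested genes fell. Of the rest, slif and path changed by 0.71 and 0.12 and gb and mnd by -0.02 and -1.02, none past the test. CD98hc, the heavy chain, had 13422, 12163 and 12487 units in U2AF50 nuclei, against 23831, 25297 and 24866 in NS nuclei (log2 change -0.75, adjusted p = 0.00689, and 0.0688 without the intensity trend). CG1607, a light chain, had 370.3, 444 and 324 units in U2AF50 nuclei, against 2595, 1774 and 1621 in NS nuclei (log2 change -2.33, adjusted p = 0.0117, and 0.0696 without NS array 1), and JhI-21 is the third. Of 10 organic cation transporters 1 rose and 2 fell. CG14857 changed by 1.60 (adjusted p = 0.0216), a call that ended without NS array 1, 2 or 3 or U2AF50 array 3 (0.0988, 0.0503, 0.0745 and 0.0644), while Orct and Orct2 passed as falls in every alternative. Orct2 had 9589, 8171 and 7161 units in U2AF50 nuclei, against 22624, 25964 and 25152 in NS nuclei.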
